A study of Homo sapiens with 6 samples.

Results

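Oxidative phosphorylation is carried out in the inner mitochondrial membrane by complexes I to V, and the nuclear genes of their protein subunits were examined here in rhabdomyosarcoma cells given extra miR-27a. The genes were chosen by name alone: a probe was taken if its gene name on the array was NDUF, a letter A, B, C, S or V and a number with nothing after it, one of SDHA to SDHD, COX4 to COX8 followed by nothing but digits or the letters A to C, or any name that began with UQCR or with ATP5 and a letter. Names with other endings, such as COX4I1, COX7A2L and NDUFAB1, were thus left out. The rule took 111 of the 41000 probes on the array, for 77 of its 30484 gene names. Complex I held 52 of these probes and 37 gene names, complex II held 8 probes and 4 names, complex III held 10 probes and 7 names, complex IV held 17 probes and 13 names, and complex V held 24 probes and 16 names. By present names NDUFA4 belongs to complex IV and ATP5S is not a structural subunit, so that each is described on its own below although the counts keep it under its old symbol.

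The study profiled RH36, an established line of embryonal rhabdomyosarcoma, a childhood tumor of the muscle lineage, that lacks the PAX3/FOXO1 fusion gene. Cells were transfected with the precursor of miR-27a (pre-miR-27a, 3 arrays) or with a negative control precursor (pre-control, 3 arrays), each numbered 1 to 3 as biological replicates, and total RNA was hybridized in 1 color to an Agilent whole human genome array. The labels give 10 nM of precursor in both groups and 48 h for pre-miR-27a only, whereas the study's methods give another concentration and another time for this transfection, so that dose and time are not settled. Every array was made from the same line and the same transient transfection procedure, and no untransfected cells were analysed here. The question of the comparison was which transcripts differ when miR-27a is raised in this fusion-negative line. The groups were hybridized on separate slides, 1 for each, so that slide and treatment cannot be told apart in any value below. The labelled cell type was checked against its markers. Of 8 muscle cell markers, 7 were on the array and 6 of them, MYOD1, MYOG, DES, CHRNA1, CDH15 and PAX7, were well above background on all 6 arrays, whereas MYF5 was above it on none. Of 9 markers of epithelial, blood and endothelial cells, EPCAM, CDH1, PTPRC and PECAM1 were above background on no array.

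Electrons enter the chain at complex I (NADH dehydrogenase) or complex II (succinate dehydrogenase, also an enzyme of the tricarboxylic acid cycle), pass through ubiquinone to complex III (cytochrome bc1) and through cytochrome c to complex IV (cytochrome c oxidase), which reduces oxygen. Complexes I, III and IV pump protons, and complex V (ATP synthase) uses the returning protons to make ATP. Most subunits are encoded in the nucleus and imported, while part of the hydrophobic core of complexes I, III, IV and V is encoded in mitochondrial DNA. Muscle depends heavily on this pathway and uses its own isoforms of several complex IV subunits, COX6A2 and COX7A1 among them.

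The transfected precursor is processed to a mature strand, which pairs with target mRNAs through its seed. The RefSeq sequence of hsa-miR-27a-3p, from chr19:13836447-13836467 on the minus strand of GRCh38.p14, is shown because it is the agent of the comparison, with its seed (bases 2 to 8) in capitals.
hsa-miR-27a-3p: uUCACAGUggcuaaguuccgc

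Of the 111 probes, 110 could be compared, and 106 of them were well above background on all 6 arrays. The probe left out was that of COX7B2, a testis isoform of a complex IV subunit, which was not above background on any array and was measured on 1 pre-control and 2 pre-miR-27a arrays. The remaining 76 genes were each represented by their brightest probe, and a fold change is given as the log2 signal of pre-miR-27a minus that of pre-control with its standard error (SE) from limma. The p-values were adjusted with the Benjamini-Hochberg method over all 36469 probes compared, and a probe was called when the adjusted p was under 0.05.

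NDUFA13 and ATP5G1 were the 2 genes called by their brightest probe, and both were lower in the pre-miR-27a arrays. They were 2 of 76 genes (2.63%), where 7.4% of all 27328 gene names compared were called. Over all probes of the pathway, 5 of 110 (4.55%) were called, 1 higher and 4 lower, where 7.83% of all probes compared were called. The other 3 called probes were the less bright probe of NDUFC2, which was higher, and those of NDUFB7 and NDUFS7, which were lower. Both shares were under the share over the array.

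NDUFA13, also known as GRIM-19, is an accessory subunit in the membrane arm of complex I with a described role in cell death. Its probe (NM_015965, hg18 chr19:19499092-19499151) read 14.72, 14.93 and 14.90 on pre-control arrays 1 to 3 and 14.30, 14.40 and 14.45 on pre-miR-27a arrays 1 to 3, in log2 signal. The highest pre-miR-27a array lay below the lowest pre-control array. The difference was -0.46 (SE 0.093, adjusted p = 0.0429 with limma), or 0.725 times the pre-control signal. In cells measured in bulk, fewer cells with a transcript and less of it per cell cannot be told apart.

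ATP5G1 is one of the genes, with ATP5G2 and ATP5G3, that encode the same mature subunit c of the membrane ring of ATP synthase behind different import peptides. Its probe (NM_005175, hg18 chr17:44325797-44326771, an interval longer than the 60 bases of a probe and so across an intron) read 13.91, 13.87 and 13.81 with pre-control and 13.47, 13.34 and 13.53 with pre-miR-27a. All 3 pre-miR-27a arrays were below all 3 pre-control arrays, with a difference of -0.42 (SE 0.084, limma adjusted p = 0.0429). The same subunit's other genes gave -0.14 (SE 0.095, adjusted p = 0.44) for ATP5G2 and 0.13 (SE 0.15, adjusted p = 0.656) for ATP5G3, the latter -0.04 with 75th percentile scaling of the arrays. Their arrays overlapped between the groups. The second probe of ATP5G3 gave -0.15 (SE 0.17, adjusted p = 0.641). Whether ATP5G1 differed from its paralogs in response was not tested.

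NDUFA13 and ATP5G1 both lost the call when any 1 of the 6 arrays was left out, with adjusted p of 0.058 to 0.136 and of 0.0886 to 0.127. With replicate number as a block, 4 genes were called, all lower, where 14.1% of all gene names were then called. NDUFA3 and NDUFB3, accessory subunits of the membrane arm of complex I, joined the 2 in that fit.

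**Figure D1:**
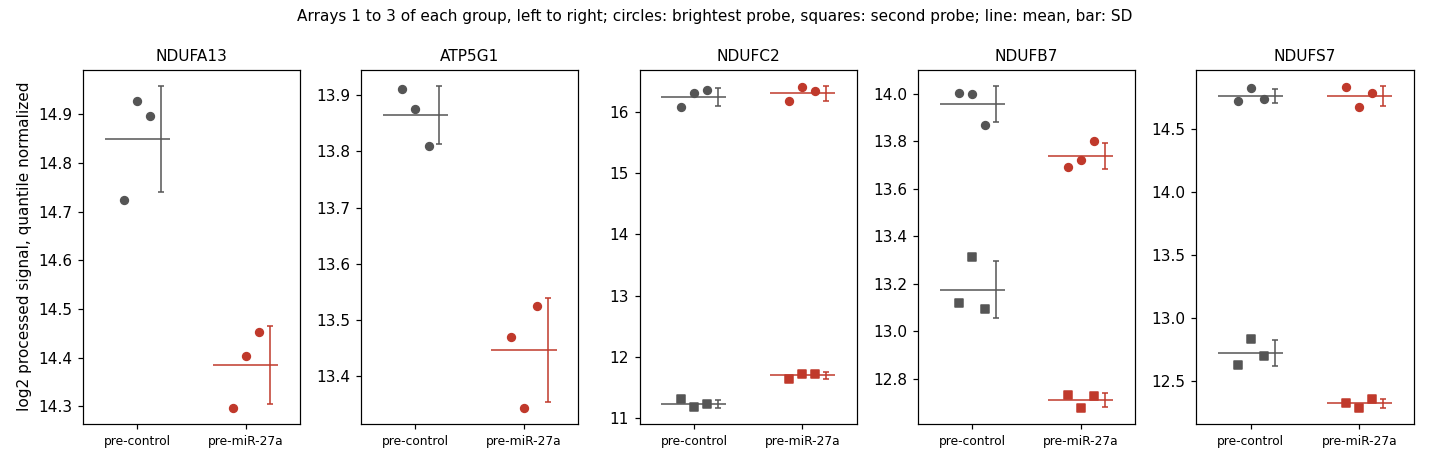
Log2 processed signal (quantile normalized, y axis) on each of the 3 pre-control and 3 pre-miR-27a arrays for the genes with a called probe. Circles are the brightest probe and squares a second probe, horizontal lines are means and bars are SD (n = 3); NDUFA13 lay between 14.30 and 14.45 with pre-miR-27a and between 14.72 and 14.93 with pre-control, while the brightest probes of NDUFC2 and NDUFS7 overlapped between the groups.

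Of the 76 genes, 53 were lower and 23 higher in the mean of the pre-miR-27a arrays. The median difference was -0.10, against -0.04 over all gene names, and the differences ran from -0.58 to 0.25. Without pre-miR-27a array 1 the median was -0.05 against -0.04 over all gene names, without pre-control array 2 it was -0.06 against -0.04, and without pre-control array 1 it was -0.15 against -0.03. The differences were small as a rule: 64 of the 76 genes lay within 0.25 of 0, compared with 15484 of the 27328 gene names and with 12225 of the 19865 detected above background on every array. In 23 genes (30.3%) every pre-miR-27a array was below every pre-control array, where 18.9% of all gene names showed this. The opposite held for 4 genes, ATP5F1, NDUFB5, NDUFS1 and SDHD, where 12.6% of all gene names showed it. Of the 19865 gene names detected above background on every array, 4265 (21.5%) separated downward and 2789 upward. In either direction 35.5% of these detected names separated, as did 35.5% of the 76 genes. Thus the share that separated was the same as among detected names. Within it, the 76 genes lay downward more often and upward less often, as a description of these 6 arrays. With an unadjusted p under 0.05, 13 of the 76 genes lay below and 2 above, where 3851 of the 27328 gene names lay below and 2644 above.

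The share of lower genes moved with the scaling of the arrays. With 75th percentile scaling of each array, and no quantile normalization, 67 of the 76 genes were lower with a median of -0.22, and the median over all gene names moved from -0.04 to -0.12. Relative to all gene names the median of the genes was -0.06 after quantile normalization and -0.10 after 75th percentile scaling. The median over the genes on each array, in log2 signal, was 14.45, 14.66 and 14.57 with pre-control and 14.44, 14.51 and 14.59 with pre-miR-27a. These medians overlapped between the groups, since pre-miR-27a array 3 lay above pre-control array 1. Taken by replicate number, the median difference was -0.10 for pair 1, -0.15 for pair 2 and -0.03 for pair 3.

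**Figure D2:**
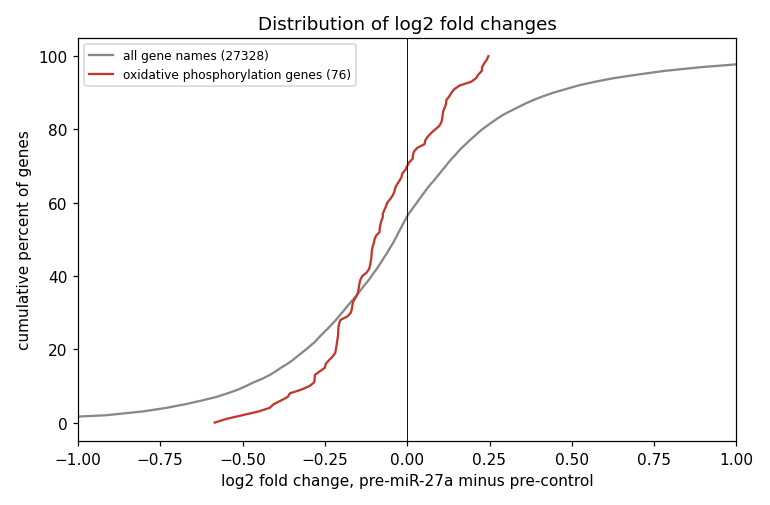
Cumulative percent of genes (y axis) against log2 fold change of pre-miR-27a over pre-control (x axis) for the 76 oxidative phosphorylation genes and for all 27328 gene names. The pathway's genes end at 0.25 on the right and their curve is steeper, with a median of -0.10 against -0.04.

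Complex I takes electrons from NADH. Of its 37 genes, 28 were lower and 9 higher, with a median of -0.10, which was -0.05 without pre-miR-27a array 1, -0.06 without pre-control array 2 and -0.18 without pre-control array 1. Its arrays were without overlap in 12 genes downward (32.4%) and 2 upward, against 18.9% and 12.6% of all gene names. Its core subunits, which carry the flavin and the iron-sulfur clusters, and its accessory subunits, which surround them, were described apart. Of the 7 core genes 3 were lower and 4 higher, with a median of 0.00 after quantile normalization, -0.14 after 75th percentile scaling and 0.04 relative to all gene names under the former. Of the 29 accessory genes 24 were lower and 5 higher, with a median of -0.10, or -0.06 relative to all gene names, and 11 lay below pre-control without overlap (37.9%). When 1 array was left out, the core median ran from -0.05 (without pre-miR-27a array 3) to 0.05 (without pre-miR-27a array 2) and was below 0 in all fits but the latter, and the accessory median ran from -0.19 (without pre-control array 1) to -0.07 (without pre-control array 2). The difference between core and accessory genes was not tested.

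NDUFS1, a large core subunit that carries several iron-sulfur clusters, had the highest difference within complex I among the brightest probes. It read 14.28, 14.33 and 14.29 with pre-control and 14.53, 14.52 and 14.53 with pre-miR-27a, so that the groups were apart. The difference of 0.23 (SE 0.068) was not called (adjusted p = 0.108 with limma). The second probe of NDUFS1 gave 0.04 (SE 0.069, adjusted p = 0.8) with overlapping arrays. NDUFV1, which binds NADH and flavin mononucleotide, gave 0.12 (SE 0.09, adjusted p = 0.484), which turned negative (-0.05) with 75th percentile scaling. NDUFS3, a subunit of the ubiquinone-binding module, lay below pre-control on all arrays, at 14.79, 14.90 and 14.93 against 15.06, 15.12 and 15.06, a difference of -0.21 (SE 0.077, adjusted p = 0.172). Of the other core genes, the brightest probes gave -0.15 for NDUFS8, -0.08 for NDUFV2 and 0.0016 for NDUFS7, each with overlapping arrays.

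The accessory subunits held the lowest values of the pathway. NDUFA3 read 13.58, 13.84 and 13.59 with pre-control and 12.85, 13.22 and 13.20 with pre-miR-27a, a difference of -0.58 (SE 0.14). Its arrays did not overlap, and its limma adjusted p was 0.0653, or 0.0423 with the replicate block. NDUFB3 read 13.23, 13.65 and 13.51 and 12.71, 13.02 and 13.05, a difference of -0.54 (SE 0.15, adjusted p = 0.0983, or 0.0348 with the block). In both genes array 1 of each group was the lowest of its 3. NDUFA11, a membrane arm subunit, and NDUFA2, a matrix arm subunit with a thioredoxin-like fold, gave -0.37 (SE 0.099, adjusted p = 0.0872) and -0.36 (SE 0.093, adjusted p = 0.0787), both without overlap and neither called. The second probe of NDUFA2 gave -0.33. On the other side, NDUFA7 gave 0.21 (SE 0.13, adjusted p = 0.373) with overlapping arrays, and NDUFB5 gave 0.14 (SE 0.074, adjusted p = 0.319) without overlap.

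NDUFA4, first assigned to complex I and now to complex IV, gave -0.15 (SE 0.13, adjusted p = 0.539), and its arrays overlapped.

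**Figure D3:**
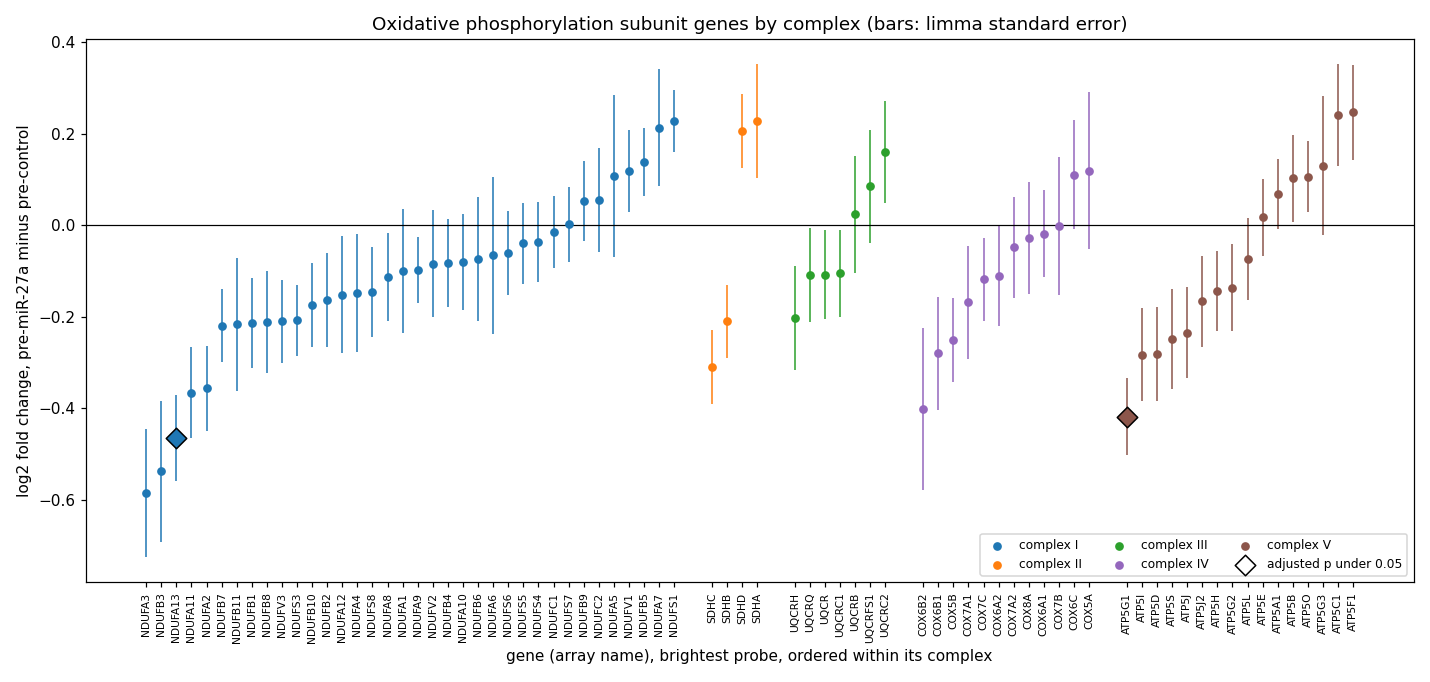
Log2 fold change of pre-miR-27a over pre-control (y axis) for the brightest probe of each of 75 of the 76 genes, ordered within complexes I to V (x axis, array names). Points are the limma estimates, bars their SE and outlined diamonds the called genes; most points lie between -0.25 and 0.25, and the called genes are NDUFA13 at -0.46 and ATP5G1 at -0.42.

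Complex II is wholly encoded in the nucleus, and its 4 genes split evenly, with 2 lower and 2 higher. SDHA, the flavoprotein that oxidizes succinate, read 14.21, 13.90 and 13.99 with pre-control and 14.43, 14.15 and 14.21 with pre-miR-27a, with overlap and a difference of 0.23 (SE 0.13, adjusted p = 0.332). SDHB, its iron-sulfur partner, read 13.94, 13.87 and 13.78 and 13.61, 13.68 and 13.67, with no overlap and a difference of -0.21 (SE 0.079, adjusted p = 0.179). The membrane anchors also lay on opposite sides of 0. SDHC read 12.69, 12.60 and 12.77 against 12.34, 12.43 and 12.35, a difference of -0.31 (SE 0.081, adjusted p = 0.0788), and SDHD read 11.83, 11.97 and 11.80 against 12.03, 12.09 and 12.10, a difference of 0.21 (SE 0.081, adjusted p = 0.195). None of the 8 probes of complex II was called by limma, while 1 higher and 2 lower probes had an unadjusted p under 0.05. The 3 further probes of SDHD lay between -0.12 and 0.01, so that its positive value rested on 1 of 4 probes.

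Complex III had 4 genes lower and 3 higher, none called and none without overlap, and none of its 10 probes had an unadjusted p under 0.05. The core proteins gave -0.10 (SE 0.095) for UQCRC1 and 0.16 (SE 0.11) for UQCRC2, with adjusted p of 0.558 and 0.442. UQCRFS1, the Rieske iron-sulfur protein, gave 0.08 (SE 0.12, adjusted p = 0.729), which was -0.06 with 75th percentile scaling. The second probe of UQCRFS1 gave -0.12 (SE 0.11, adjusted p = 0.553). UQCRH, the hinge protein that sits by cytochrome c1, was the lowest at -0.20 (SE 0.11, adjusted p = 0.339), with 16.06, 16.33 and 16.09 for pre-control and 15.84, 16.07 and 15.96 for pre-miR-27a. Its second probe gave -0.23, and pre-miR-27a array 2 overlapped the pre-control range in both probes.

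Complex IV had 10 of 12 genes lower, with a median of -0.08 after quantile normalization and 12 of 12 lower, with a median of -0.26, after 75th percentile scaling. Without pre-miR-27a array 1, 6 of 12 were lower with a median of -0.02, above the -0.04 of all gene names, without pre-control array 2 the median was -0.05, and over the 11 genes well above background it was also -0.05. None was called by limma, 1 had an unadjusted p under 0.05 and 2 (16.7%), COX5B and COX6B2, were without overlap. Both lay downward, where 18.9% of all gene names did so, and COX6B2 lacked a value on pre-control array 2. COX5B, which holds a zinc ion on the matrix side, read 15.34, 15.55 and 15.48 with pre-control and 15.12, 15.24 and 15.25 with pre-miR-27a, a difference of -0.25 (SE 0.092, adjusted p = 0.168). COX5A was the highest of the complex at 0.12 (SE 0.17, adjusted p = 0.728), which was -0.01 under 75th percentile scaling.

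The isoforms of complex IV subunits that are specific to tissues were compared with their general partners. COX6A2, the heart and skeletal muscle form, was well above background on all arrays, at 15.37, 15.19 and 15.15 with pre-control and 15.18, 14.97 and 15.23 with pre-miR-27a, and differed by -0.11 (SE 0.11, adjusted p = 0.595). COX6A1, the form of other tissues, gave -0.02 (SE 0.095, adjusted p = 0.933). COX7A1, the muscle form of another subunit, was above background on 1 array of 6, in the pre-miR-27a group, so that no fold is given for it. Its partner COX7A2 gave -0.05 (SE 0.11, adjusted p = 0.833). COX6B2, a testis form, had the lowest difference of complex IV, -0.40 (SE 0.18, adjusted p = 0.251), but its pre-control array 2 was missing and the fit used the other 5. It read 7.99 and 7.90 on pre-control arrays 1 and 3 and 7.31, 7.49 and 7.82 with pre-miR-27a. The dim second probe of COX6B2, well above background on 1 pre-control array, gave 0.10 (SE 0.15, adjusted p = 0.742). COX6B1 gave -0.28 (SE 0.12, adjusted p = 0.233), COX7B gave -0.0022 (SE 0.15, adjusted p = 0.995) and COX8A gave -0.03 (SE 0.12, adjusted p = 0.915). Muscle and general forms thus did not pass the test in either direction, and no difference between an isoform and its partner was tested.

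Complex V had 9 genes lower and 7 higher, with a median of -0.11, or -0.05 without pre-miR-27a array 1. Its groups were without overlap in 7 genes downward (43.8%) and 1 upward, against 18.9% and 12.6% of all gene names. The F1 head, which makes ATP, had 4 of 5 genes higher, with a median of 0.07 (0.04 without pre-control array 2 and 0.02 without pre-miR-27a array 3), or 1 of 5 higher with a median of -0.13 after 75th percentile scaling. The alpha subunit ATP5A1 gave 0.07 (SE 0.076, adjusted p = 0.641), and the beta subunit ATP5B, which holds the catalytic sites, gave 0.10 (SE 0.095, adjusted p = 0.57). The gamma subunit ATP5C1, the shaft that turns in the head, gave 0.24 (SE 0.11, adjusted p = 0.256). The delta subunit ATP5D was the member of the head that lay lower, at 12.52, 12.38 and 12.61 against 12.67, 12.89 and 12.79, a difference of -0.28 (SE 0.1, adjusted p = 0.165), and its second probe gave -0.37 (SE 0.082, adjusted p = 0.0536).

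The peripheral stalk, which keeps the head from turning, had 2 genes lower and 2 higher. ATP5F1, its subunit b, had the highest difference of the whole pathway among the brightest probes, with 14.22, 14.43 and 14.50 for pre-control and 14.61, 14.57 and 14.71 for pre-miR-27a. The arrays did not overlap, but the difference of 0.25 (SE 0.1) was not called (adjusted p = 0.217). The second probe of ATP5F1, of lower signal, gave -0.02 (SE 0.1, adjusted p = 0.929) with overlapping arrays. Its high value thus rested on 1 of 2 probes. ATP5J, subunit F6 of the same stalk, gave -0.23 (SE 0.1, adjusted p = 0.222), again without overlap. The small membrane subunits ATP5I, ATP5J2 and ATP5L were all lower, at -0.28, -0.17 and -0.07. They were also lower after 75th percentile scaling, but that scaling moved the median over all gene names from -0.04 to -0.12. None of the 3 was called by limma (adjusted p of 0.162, 0.373 and 0.669). ATP5S, now DMAC2L and not a structural subunit, gave -0.25 (SE 0.11, adjusted p = 0.235).

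For 31 genes more than 1 probe was compared, and in 8 of them the probes differed in sign. In 9 genes they differed by more than 0.25. NDUFC2, an accessory subunit at the membrane arm, gave the 1 called rise of the pathway in this fit, on a probe (hg18 chr11:77457083-77457142) that lay outside the interval of its brightest probe (chr11:77458588-77458647). That probe read 11.30, 11.17 and 11.22 with pre-control and 11.64, 11.72 and 11.72 with pre-miR-27a, a difference of 0.46 (SE 0.077, limma adjusted p = 0.0295), whereas the brightest probe read 16.09, 16.31 and 16.37 and 16.18, 16.41 and 16.34, with overlap and a difference of 0.06 (SE 0.11, adjusted p = 0.814).

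NDUFS7 carries the last iron-sulfur cluster before ubiquinone. Its second probe (chr19:1344247-1344306) read 12.63, 12.84 and 12.70 and 12.33, 12.29 and 12.36, a difference of -0.40 (SE 0.085, adjusted p = 0.0499), and its brightest probe (chr19:1346507-1346566) read 14.72, 14.82 and 14.73 and 14.83, 14.67 and 14.78, with the groups overlapping around a difference of 0.0016 (SE 0.081, adjusted p = 0.994). With the replicate block the second probe was no longer called (adjusted p = 0.0536). NDUFB7, an accessory subunit on the intermembrane side, lay lower on both of its probes. The second probe (chr19:14538745-14543759) read 13.12, 13.32 and 13.09 and 12.73, 12.68 and 12.73, a difference of -0.46 (SE 0.09, adjusted p = 0.04), and the brightest one (chr19:14538040-14538598) gave -0.22 (SE 0.08, adjusted p = 0.169), both without overlap.

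Other genes showed such splits without a call. COX7B had -0.0022 on its brightest probe and -0.47 on the other (SE 0.11, adjusted p = 0.0658, or 0.0375 with the replicate block), whose arrays read 10.15, 10.01 and 10.20 and 9.59, 9.51 and 9.83. The block fit called 1 higher and 6 lower probes of the pathway, where 14.9% of all probes were called. NDUFS4, an accessory subunit of the peripheral arm, had a dim second probe, well above background on all 3 pre-miR-27a arrays but on 0 of the 3 with pre-control. It read 4.85, 5.18 and 4.25 and 5.10, 5.39 and 5.25, with overlap between the groups. The adjusted p was 0.294 with limma, and the brightest probe gave -0.04. With the floor of detection standing in for pre-control, the ratio of means was 1.36. That ratio sets the mean of the pre-miR-27a arrays over the mean of floored pre-control values. Each floored value is the higher of the probe's own signal and the lowest signal of any detected probe on that array. The ratio carries no sampling error, so that no least fold is established. Which of 2 probes of a gene reports its transcripts more closely was not tested, and no probe sequence was used here.

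**Figure D4:**
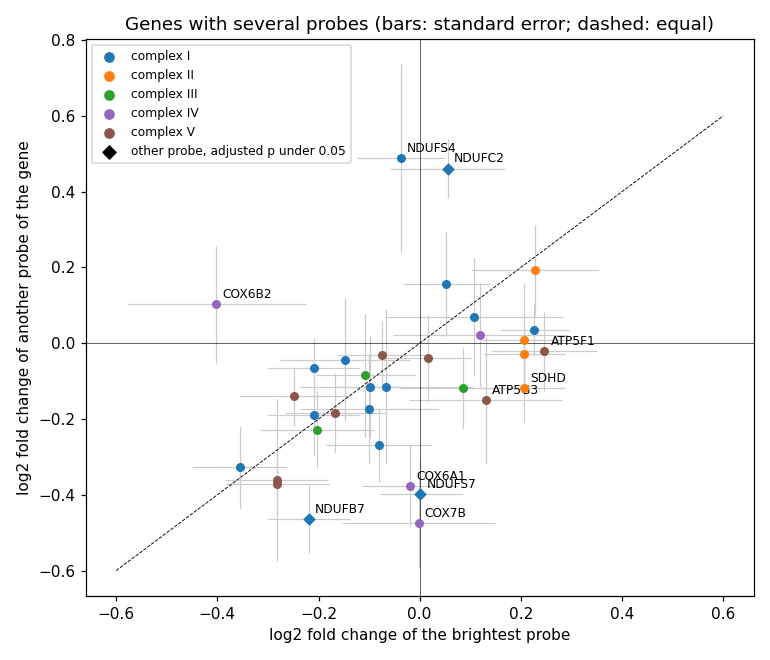
Log2 fold change of each further probe of a gene (y axis) against that of its brightest probe (x axis), for 31 genes with at least 2 probes compared. Bars are SE, the dashed line is equality and diamonds are further probes that were called; NDUFC2 stands above the line at 0.46 and NDUFS7 below it at -0.40, each with a brightest probe near 0.

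The pathway's genes on chromosome 19 were counted apart, since NDUFA13, NDUFA3, NDUFB7 and NDUFS7 lie there. Of 12 such genes 9 were lower and 6 were below pre-control without overlap (50%), with a median of -0.25 and a range of -0.58 to 0.21. Over the 1602 gene names on chromosome 19 the median was -0.11, with 998 lower, 462 below pre-control without overlap (28.8%) and 179 called (11.2%). The median and the share called were -0.03 and 1843 of 25726 (7.16%) elsewhere. The pathway's 64 genes elsewhere had a median of -0.08, with 44 lower. The grouping was chosen after the values were seen, and base composition was not tested.

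The neighbors of the pathway were taken from lists. Of 9 subunits and close relatives that the name rule misses, CYC1, COX4I1, USMG5 and C14orf2 among them, 8 were compared, 7 were lower and none was called by limma, with 1 lower at an unadjusted p under 0.05. NDUFA4L2, counted among the 7, was above background on 0 of 6 arrays, so that its direction is not read. CYC1, the cytochrome c1 of complex III, gave -0.28 (SE 0.081, adjusted p = 0.099), and CYCS, cytochrome c itself, gave 0.07 (SE 0.12, adjusted p = 0.768). Of the 13 subunits encoded in mitochondrial DNA, 6 were on the array, 4 lower and 2 higher and none called, with 1 in each direction at an unadjusted p under 0.05. The higher one was MT-ND3, at 0.20 (SE 0.079, adjusted p = 0.2), and the lower one MT-ND2, at -0.33 (SE 0.11, adjusted p = 0.129). MT-ND6, the subunit of complex I encoded on the opposite strand from the others, gave 0.54 (SE 0.24) with overlapping arrays. Its adjusted p was 0.233, or 0.0336 with the replicate block.

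Of 32 assembly factors compared, 20 were lower and 12 higher with a median of -0.09, and 1 was called (3.12%, against 7.4% of all gene names). This was ATPAF2, an assembly factor of the F1 head of ATP synthase, at -0.49 (SE 0.099, limma adjusted p = 0.0431). NUBPL, which delivers iron-sulfur clusters to complex I, gave 0.54 (SE 0.12), with an adjusted p of 0.0514, or 0.0366 with the replicate block. In the block fit, which called 14.1% of all gene names, 1 was higher and 4 were lower, the others being NDUFAF1, COX16 and COX17. The 8 carriers and channels, among them the ADP/ATP carriers and the voltage-dependent anion channels, had 5 higher and 3 lower, a median of 0.06 and no call, with none at an unadjusted p under 0.05.

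Among 17 regulators of mitochondrial gene expression, 2 were called (11.8%, against 7.4% of all gene names), both higher. YY1, a transcription factor that binds many promoters of this pathway, gave 0.63 (SE 0.075, limma adjusted p = 0.0184). GABPB1 is a subunit of the ETS factor GABP (nuclear respiratory factor 2). It was matched by alias, and not by transcript, to the array name GABPB2, which has 3 probes. The brightest of them compared gave 0.52 (SE 0.11, adjusted p = 0.0458). GABPA, the DNA-binding subunit of GABP, gave 0.34 (SE 0.12), with an adjusted p of 0.171, or 0.0484 with the replicate block. NRF1 gave -0.02 (SE 0.11, adjusted p = 0.94), and PPARGC1A, the coactivator that induces mitochondrial genes, gave 0.05 (SE 0.12, adjusted p = 0.843). The 14 genes of the tricarboxylic acid cycle had 9 higher and 5 lower with a median of 0.07, and the 18 glycolytic genes 5 higher and 13 lower with a median of -0.05. Neither held a call by limma, with 2 higher and 1 lower in the cycle and 1 lower in glycolysis at an unadjusted p under 0.05.

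**Figure D5:**
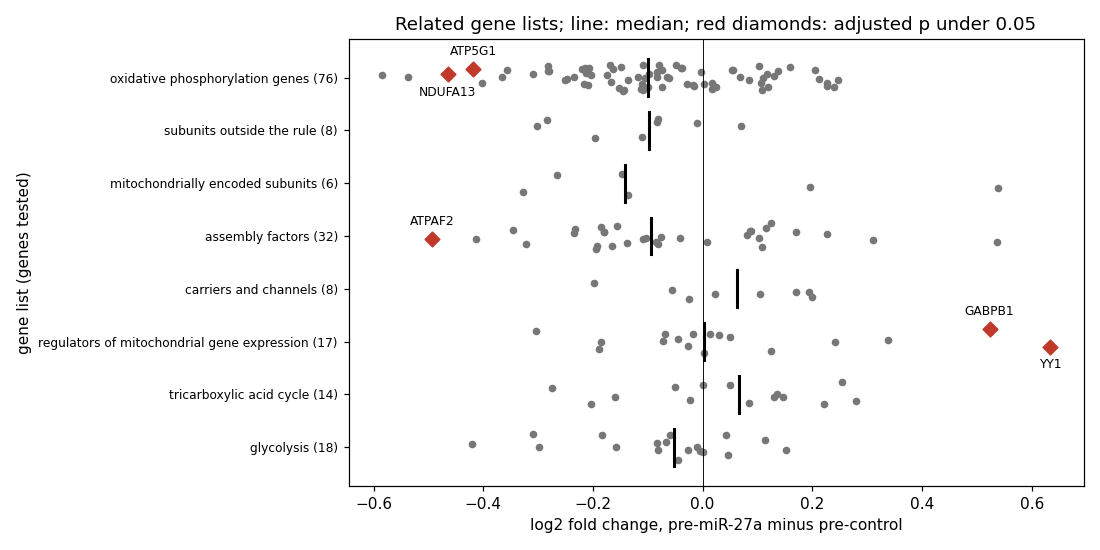
Log2 fold change of pre-miR-27a over pre-control (x axis) for the genes of each list (y axis, number compared in brackets). Points are genes, spread vertically for legibility, black lines are medians and red diamonds are genes with an adjusted p under 0.05; YY1 and GABPB1 lie to the right, and ATPAF2, NDUFA13 and ATP5G1 to the left.

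Markers of cell state were read beside these values. The 6 muscle markers compared were all lower in mean, and none was called by limma. With an unadjusted p under 0.05 there were 3, and 3 (MYOD1, MYOG and CDH15) were called with the replicate block. MYOG fell most, by -0.95, while DES at -0.01, PAX7 at -0.12 and CHRNA1 at -0.15 had overlapping arrays. Of the 27328 gene names, 3851 lay lower at an unadjusted p under 0.05, and the block fit called 14.1%. The mean log2 signal of the muscle markers was 13.02 to 13.28 over the pre-control and 12.72 to 12.92 over the pre-miR-27a arrays. Of the 9 markers of other cell types, CD14 at -0.71 and CD3E at -0.44 were called (22.2%, against 7.4% of all gene names), both lower, and the mean of the 6 measured on every array was 4.68 to 5.05 with pre-control and 4.78 to 4.83 with pre-miR-27a. The arrays also differed by group in technical measures: 69.9 to 73.9% of spots were well above background with pre-control and 74.1 to 78% with pre-miR-27a, the median local background was 74.5 to 76 against 52.5 to 53 intensity units, and 7 of 8 spike-in transcripts, added to the labeling, were higher with pre-miR-27a on the 75th percentile scale (median 0.21, range -0.12 to 0.38). No spot was saturated. The part of these differences in the values above was not tested.

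The promoters of the pathway were searched for the motifs of regulators known to bind there. RefSeq promoters of GRCh38.p14, 250 bases before to 50 after the start, were matched for 63 of the 77 genes by present symbol. The motifs were CGCNTGCG for the core of NRF1, CCGGAAG for ETS factors such as GABP and AAGATGGCG for YY1, on both strands. The NRF1 letters were found in 20 promoters (31.7%), against 10.6% of all 27305 promoters, the ETS letters in 18 (28.6%) against 10.7%, and the YY1 letters in 8 (12.7%) against 1.85%. At least 1 of the 3 was in 35 promoters (55.6%) against 20.3%. With 1 more base on each side of the NRF1 letters, the form listed at first, there were 14 promoters (22.2%) against 6.28%, and with 2 more bases of the YY1 motif there were 4 (6.35%) against 0.916%. Matches of the ETS and YY1 letters can overlap by their ends, and both were then counted. The genes compared with the ETS letters had a median difference of -0.17 with 16 of 18 lower, and those without them -0.08 with 31 of 44 lower. For the YY1 letters these were -0.08 with 6 of 8 lower and -0.11 with 41 of 54 lower, and for the NRF1 letters -0.09 with 14 of 20 and -0.11 with 33 of 42. A match is a run of letters and no proof of binding.

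The 250 bases before the start are shown for NDUFA13 and ATP5G1, the called genes, and for NDUFA3, the gene with the lowest value, with matches in capitals. They lie on the plus strand at chr19:19515975-19516224, chr17:48892537-48892786 and chr19:54102605-54102854 of GRCh38.p14. NDUFA13 holds 1 ETS match, NDUFA3 holds NRF1 matches, and ATP5G1 holds none of these letters.
NDUFA13: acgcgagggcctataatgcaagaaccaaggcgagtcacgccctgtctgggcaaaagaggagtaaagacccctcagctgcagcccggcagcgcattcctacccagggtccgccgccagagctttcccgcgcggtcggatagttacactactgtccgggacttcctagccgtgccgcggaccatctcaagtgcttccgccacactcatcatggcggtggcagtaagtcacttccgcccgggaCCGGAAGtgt
ATP5G1: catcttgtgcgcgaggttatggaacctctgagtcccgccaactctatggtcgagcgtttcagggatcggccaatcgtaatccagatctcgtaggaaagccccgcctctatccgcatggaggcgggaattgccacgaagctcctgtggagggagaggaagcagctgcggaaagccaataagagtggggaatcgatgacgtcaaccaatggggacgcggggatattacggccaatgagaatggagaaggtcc
NDUFA3: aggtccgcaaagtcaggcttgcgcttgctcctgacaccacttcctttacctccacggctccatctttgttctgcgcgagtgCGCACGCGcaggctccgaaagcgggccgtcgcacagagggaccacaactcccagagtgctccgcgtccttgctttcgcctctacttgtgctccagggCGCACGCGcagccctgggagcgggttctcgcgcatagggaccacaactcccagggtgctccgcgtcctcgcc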

How the data were processed

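Total RNA of RH36 cells was hybridized to 6 single-color Agilent arrays, 3 per group as the labels give them. Per the file headers the authors extracted the spot intensities with Feature Extraction 10.5.1.1, and the deposited processed signal is an intensity after background subtraction. A table of log2 values that the authors deposited for these arrays served as an alternative. From the spot files, control spots and spots not found were left out, log2 processed signal was quantile normalized, spots of a probe were averaged, and probes with at most 1 missing array were kept (36469). Groups were compared with limma 3.58.1 in R 4.3.3, and p-values were adjusted with the Benjamini-Hochberg method (threshold 0.05) over all probes kept. A gene was represented by its brightest probe. The number of arrays limits the precision: 3 against 3 allow an exact two-sided permutation p of at least 0.1, so no such test was run probe by probe. Unpaired SAM, an alternative, used the 20 relabelings of the arrays over all probes together. No per-sample column was left unused for lack of a sample.

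The members and gene lists were chosen with earlier results of these data known. The genes named are those called, the highest and lowest difference of each complex among probes above background, core subunits and isoform sets; NDUFA2, NDUFA11, NDUFS3, ATP5D, ATP5J, ATP5C1, COX5B and other genes were named after their values were seen. Gene names are those of the array; all 77 matched a RefSeq symbol and 18 had changed. Probe coordinates are hg18 as deposited, and promoters are GRCh38.p14; the motif letters were shortened from those listed at first. Arrays with the same replicate number deviated together from their group means (r = 0.396, 0.456 and 0.409 over 31717 probes, and -0.266 to -0.123 between different numbers), so the fit with replicate number as a block is given where it changes a call. Centring on the group means by itself drives the r between different numbers negative when the r of equal numbers is positive. The range between different numbers is therefore no separate contrast. Other alternatives were another background correction (normexp, offset 50), scaling to the 75th percentile, other filters, the deposited table, robust variance estimation, the mean of all probes of a gene, unpaired SAM, and leaving out each array. One gene of complex I is counted but not reported here by name.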

Additional observations from a re-analysis of the deposited data

How the results depend on the processing

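Values below are for the 110 probes and 76 genes of the pathway, where limma called 1 probe higher and 4 lower, and 2 genes lower. With replicate number as a block, 4 genes were called lower, with NDUFA3 and NDUFB3 added, and among probes NDUFS7 lost its call while COX7B, NDUFA3 and NDUFB3 gained one; the block changed no other call among these probes. Normexp background correction gave 8 probes and 4 genes lower and kept the NDUFC2 rise, where 9.67% of all probes were called. With probes well above background only, 7 probes were lower and the NDUFC2 rise stayed, where 12.6% of all probes were called. With trend and robust estimation, 2 probes were higher and 9 lower, and 1 gene was higher and 5 lower, where 9.26% of all probes were called. When a gene was counted by any of its probes, a choice made after seeing the data, 1 gene was higher and 4 lower. With the mean of all probes of a gene, 0 genes were called lower by limma, 12 lower and 1 higher having an unadjusted p under 0.05, and NDUFA13 (adjusted p = 0.0529) and ATP5G1 (0.0527) lay just past the threshold. SAM, the method named by the study, was run here unpaired, although the study also describes a paired analysis. At a false discovery rate of 5% SAM called 0 of 108 probes in either direction, against 1147 higher and 405 lower over the array. Its null rested on 20 relabelings of the arrays, which is coarse. The median of -0.10 moved to -0.22 with 75th percentile scaling, which moved the median of all probes from -0.02 to -0.09. The cause was not tested for any of these shifts.

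Leaving out any 1 of the 6 arrays left 0 called probes and 0 called genes, while 14 to 21 of the probes had an unadjusted p under 0.05. Over the whole array the calls then fell from 2856 to between 0 and 1276, with a group of 2 arrays left in every such fit. They were 1276 without pre-control replicate 1, 81 without pre-control replicate 3 and 0 without any of the others. The cause of this range was not tested. The median ranged from -0.15 without pre-control replicate 1 to -0.05 without pre-miR-27a replicate 1. NDUFA13 and ATP5G1 were each called in 7 of the 8 limma alternatives that kept all arrays, and the second probes of NDUFB7 and NDUFC2 in 7 of 7, that of NDUFS7 in 4 of 7. No direction of a called probe reversed under these alternatives. The deposited log2 table differed from the recomputed values by a median of 0.004 and called the same 5 probes. Signal over background limits COX7B2, COX7A1 and the second probes of NDUFS4, COX6A1 and COX6B2.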
